A study of Mus musculus with 9 samples.

Results

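p53 is a transcription factor that is held at a low level by the ubiquitin ligase Mdm2 and is stabilised when DNA is damaged. It then raises the transcription of genes for cell cycle arrest, cell death, nucleotide supply and repair, and of Mdm2 itself, which closes a feedback loop. Platinum drugs form adducts on DNA, and the dorsal root ganglion, which holds the cell bodies of sensory neurons outside the blood-nerve barrier, is a known site of their toxicity. The genes described here are 32 p53 targets and DNA damage response genes, chosen by symbol from a list. All 32 symbols were found among the 38926 genes of the count files, and 31 passed the filter on low counts (17348 genes did in all). The exception was Gdf15.

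RNA was measured in whole dorsal root ganglia of spinal levels L3 to L5, taken on the treated side from male C57BL/6 mice of wild type genotype aged 8 to 10 weeks. The 3 groups had received vehicle, cisplatin or oxaliplatin into the paw, each drug to a cumulative dose of 40 µg, and the interval between the last injection and dissection is not given in the sources used here. Each group had 3 libraries, and each library was made from the pooled ganglia of 4 animals, so the spread between libraries is that between pools and not between single mice. The tissue is a mixture of neurons, glia, vessels and blood-borne cells. In such bulk samples fewer cells of a type and less RNA per cell cannot be told apart.

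Between 22819185 and 38808509 reads were counted to genes in the 9 libraries. The floor of detection, taken as 3 reads, stood for 0.0711 to 0.188 CPM. CPM is the read count over the depth of its library, scaled with the TMM factors of edgeR. Reads that matched no counted gene feature made up 33.6% ± 12.3 (SD, n = 3) of uniquely placed reads in vehicle libraries. They made up 18.8% ± 0.25 after cisplatin and 17.4% ± 0.664 after oxaliplatin, without overlap between any of the groups. Each comparison gave p = 0.1 in a two-sided exact permutation test, the smallest that 3 against 3 allows (0.12 after adjustment over 6 comparisons). Whether such reads lay in introns or between genes cannot be told from the counts. Vehicle library 2 stood apart from the rest, with a TMM factor of 0.70 against 0.96 to 1.10. Records of reads placed at several sites made up 51.0% of all records counted in it, against 25.9 to 33.8% in the others. A read placed at several sites may have been recorded more than once. The 15 sensory neuron markers summed to 20422 to 21613 CPM in vehicle libraries, 18533 to 20912 after cisplatin and 19543 to 20640 after oxaliplatin. These sums are in keeping with the tissue label. Of the 15 markers, 1 was called higher and 5 lower for each drug. Of all genes, 15.8% were called higher and 22.9% lower for cisplatin, and 17.5% and 24.1% for oxaliplatin. Marker sums of other cells were higher in every drug library than in every vehicle library for macrophages (91.3 to 126 CPM in vehicle, 136 to 166 after cisplatin and 145 to 158 after oxaliplatin), erythroid cells (40.4 to 57.6, 101 to 218 and 86.4 to 211) and endothelial cells (97.0 to 119, 138 to 181 and 150 to 160). The same held for Schwann cells (3510 to 4302, 4830 to 6009 and 4558 to 4815), satellite glia (2959 to 3301, 3419 to 3658 and 3628 to 3831) and fibroblasts (1480 to 1719, 1938 to 2236 and 1954 to 2125). Of the 8 satellite glia markers, 2 were called higher and 3 lower for cisplatin and 1 higher and 3 lower for oxaliplatin, so their sum rose while single markers went both ways. For neutrophil markers the oxaliplatin libraries overlapped vehicle (94.4 to 215 against 45.7 to 108 CPM), and the cisplatin libraries (179 to 287) were above every vehicle library. The part of these differences in the values below was not tested.

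Promoter sequences are shown for Cdkn1a and for the members that were called as changed and hold the p53 decamer, the 10-base consensus that p53 binds in pairs, because these are the members in which a reader can see the motif beside the measured change. RefSeq windows of GRCm38.p6, from 250 bases before to 50 after an annotated start, were at hand for 25 of the 32 members. The decamer, searched on both strands, occurred in 10 of these 25 (40.0%), against 9.55% of the 27025 genes with a window. Paired decamers with a gap of at most 13 bases occurred in 1 of the members' 34 windows, the first of Cdkn1a, and in 24 of all 32851 windows (0.0731%). A match is a description of the letters, and its absence says only that they are not in this window. The second window of Cdkn1a (chr17:29093519-29093818, plus strand) held no decamer. The 250 bases before the first annotated start of Cdkn1a (chr17:29090729-29090978, plus strand) read as follows. Both decamers, in capitals, begin 73 and 51 bases before that start.
Cdkn1a: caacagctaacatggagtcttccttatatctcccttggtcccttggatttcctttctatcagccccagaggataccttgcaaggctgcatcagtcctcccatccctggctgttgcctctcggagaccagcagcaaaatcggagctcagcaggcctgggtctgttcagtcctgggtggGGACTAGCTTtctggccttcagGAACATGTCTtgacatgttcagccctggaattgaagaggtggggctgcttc

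For the other called members the decamer is shown in capitals with up to 20 bases on each side. It began 186 bases before the start in Mdm2 (chr10:117710915-117710964, minus strand), 185 in Ccng1 (chr11:40755442-40755491, minus strand), 231 in Polk (chr13:96519389-96519437, minus strand), 40 in Gadd45a (chr6:67037418-67037467, minus strand), 10 in Ei24 (chr9:36797335-36797364, minus strand), 121 in the second window of Aen (chr7:78895917-78895966, plus strand) and 173 in the second window of Sesn1 (chr10:41887246-41887295, plus strand). The first 3 of these were called as lower and the last 4 as higher for at least 1 drug. In the first window of Aen the same decamer began 10 bases after the start. The decamer of Polk was in its first window. That window and the second of Sesn1 lay inside the annotated genes. The other window of each, nearer the 5' end of the gene, held no decamer. Ddit4l and D630023F18Rik also held a decamer and were not called for either drug. Among the other called members, Plk2, Ephx1, Sulf2, Zfp365 and Triap1 had windows without a decamer. No window was at hand for Zmat3, Trp53inp1, Rrm2b and Perp.
Mdm2: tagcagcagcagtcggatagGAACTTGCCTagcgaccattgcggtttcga
Ccng1: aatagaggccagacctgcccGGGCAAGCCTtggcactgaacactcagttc
Polk: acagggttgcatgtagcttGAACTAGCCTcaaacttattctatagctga
Gadd45a: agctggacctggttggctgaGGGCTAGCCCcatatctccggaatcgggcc
Ei24: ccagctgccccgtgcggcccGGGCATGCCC
Aen: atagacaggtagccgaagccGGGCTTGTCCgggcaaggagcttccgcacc
Sesn1: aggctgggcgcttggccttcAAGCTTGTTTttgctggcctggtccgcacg

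The members did not move one way. After cisplatin 5 of the 31 tested members rose and 5 fell, and after oxaliplatin 7 rose and 9 fell. A gene was called where edgeR's quasi-likelihood test gave a Benjamini-Hochberg adjusted p under 0.05 over all 17348 genes. The called share was 32.3% of members for cisplatin, against 38.7% of all genes (15.8% higher and 22.9% lower). It was 51.6% for oxaliplatin, against 41.6% of all genes (17.5% higher and 24.1% lower). The members' median log2 fold change was 0.03 for cisplatin and 0.10 for oxaliplatin, beside 0.00 for all genes in each. Both comparisons use the same vehicle libraries. For 9 members the call was made with both drugs, and in one direction: Plk2, Gadd45a, Ei24 and Ephx1 rose and Zmat3, Mdm2, Polk, Sulf2 and Zfp365 fell. Sesn1 was called for cisplatin alone, and Aen, Perp and Triap1 (higher) and Cdkn1a, Ccng1, Trp53inp1 and Rrm2b (lower) for oxaliplatin alone. The remaining 14 tested members were called for neither.

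Most of the changes were small. Zmat3 was the only called member with a change of at least 1.5-fold, and the median 95% interval of a member reached 0.18 log2 units to either side. The groups did not overlap for 14 members in cisplatin against vehicle (45.2%, against 48.0% of all genes) and for 18 in oxaliplatin against vehicle (58.1%, against 50.5%). Single libraries moved these counts. Members higher after cisplatin numbered 3 without vehicle library 3, without cisplatin library 1 or without oxaliplatin library 3, and 2 without cisplatin library 2. Members lower after cisplatin numbered 2 without vehicle library 1 and 3 without cisplatin library 2. For oxaliplatin the higher members numbered 3 without oxaliplatin library 2 and 4 without oxaliplatin library 3, and the lower members 5 without vehicle library 1 or without oxaliplatin library 3. Without vehicle library 2, the one that stood apart, 7 members were higher and 5 lower after cisplatin, and 9 and 7 after oxaliplatin. The share of all genes called in each of these fits is not given here. Whether the members or the calls over all genes moved therefore cannot be told from these counts.

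**Figure D1:**
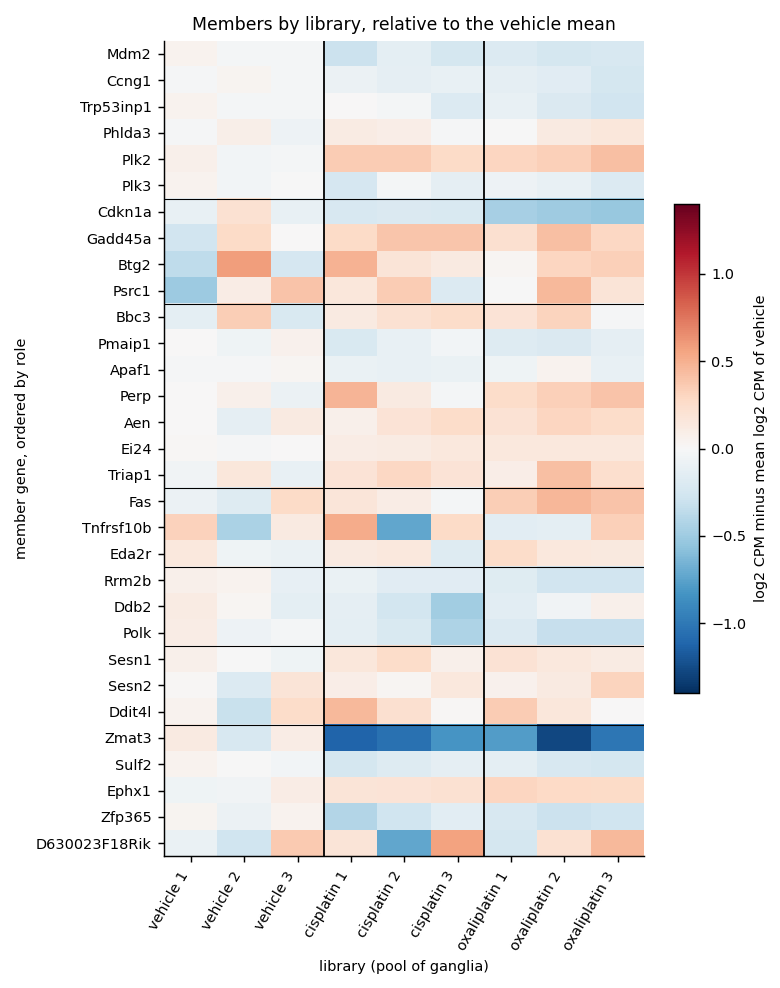
Heat map of the 31 tested members (rows, grouped by role) in the 9 libraries (columns), as log2 CPM minus the mean log2 CPM of the 3 vehicle libraries. Zmat3 was lower and Plk2 higher in each of the 6 drug libraries than in each vehicle library, as were some other members on either side. The change of Zmat3 was the largest, and the other members show differences of both signs.

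The scaling of the libraries decided the sign of most of the lower calls. With library totals in place of TMM factors, the median log2 fold change of all genes was 0.29 for cisplatin and 0.30 for oxaliplatin, and that of the members was 0.32 and 0.41. On that scale 11 members were higher and 1 lower after cisplatin (34.5% and 5.29% of all genes), and 13 and 1 after oxaliplatin (36.9% and 5.74%). The 1 lower member was Zmat3 for each drug. The directions given below are therefore relative to the bulk of the genes, as TMM scaling sets them.

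**Figure D2:**
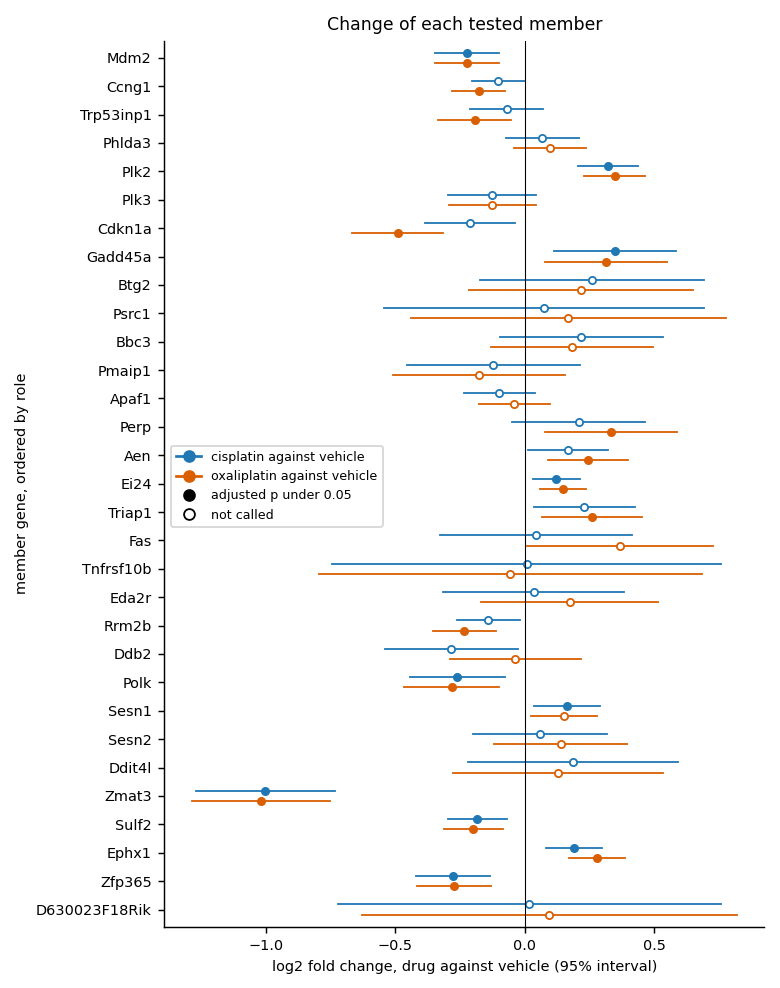
Log2 fold change of each tested member against vehicle with its 95% interval, for cisplatin (blue) and oxaliplatin (orange), with filled points for an adjusted p under 0.05. Zmat3 lies near -1 for both drugs, and every other point lies within 0.5 log2 units of 0.

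Among the genes of the p53 feedback loop, Mdm2 was lower after both drugs. It was at 41.5, 39.2 and 39.4 CPM in the vehicle libraries, 32.5, 36.5 and 33.9 after cisplatin and 35.0, 33.7 and 34.3 after oxaliplatin. Each drug library was below each vehicle library. For cisplatin the log2 fold change was -0.22 (SE 0.06, adjusted p = 0.00882) and for oxaliplatin -0.22 (SE 0.06, adjusted p = 0.0081), but 0.07 and 0.08 with library totals. Neither call held without vehicle library 1, with adjusted p-values of 0.0664 and 0.0648, and the oxaliplatin call did not hold with no count filter (0.0538).

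Ccng1, the cyclin G1 gene whose product acts on Mdm2 through a phosphatase, was the most abundant member per kilobase of exon. Its level was 181, 189 and 179 CPM in vehicle, 173, 168 and 170 after cisplatin and 167, 164 and 154 after oxaliplatin. The 3 groups did not overlap, with vehicle highest and oxaliplatin lowest. Ccng1 fell after oxaliplatin (log2 fold change -0.18, SE 0.05, adjusted p = 0.0107), but the value turned to 0.13 with library totals and 0.02 with the length and GC trend removed. The change after cisplatin was -0.10 (SE 0.05, adjusted p = 0.11). The oxaliplatin call was lost without vehicle library 2 (adjusted p = 0.0556), without oxaliplatin library 3 (0.0661) and with no count filter (0.129).

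Trp53inp1, which encodes a nuclear protein that promotes p53 activity, was at 44.2, 42.0 and 42.0 CPM in vehicle, 42.8, 42.0 and 37.5 after cisplatin and 39.7, 37.1 and 35.5 after oxaliplatin. The oxaliplatin libraries were all below the vehicle libraries, and the cisplatin libraries overlapped them. Against vehicle, Trp53inp1 changed by a log2 fold change of -0.19 (SE 0.06, adjusted p = 0.0314) for oxaliplatin, with -0.07 (adjusted p = 0.424) for cisplatin. With library totals it was 0.11 for oxaliplatin, and with the length and GC trend removed Trp53inp1 was called higher for oxaliplatin (0.16, adjusted p = 0.0374) and for cisplatin (0.19, adjusted p = 0.0176). Its oxaliplatin call was also lost with no count filter (0.127) and without any 1 of the 3 vehicle libraries or of oxaliplatin libraries 2 and 3 (adjusted p from 0.0504 to 0.17).

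Phlda3, a pleckstrin homology domain gene that restrains Akt signalling, was at 35.1, 37.5 and 33.7 CPM in vehicle, 38.3, 37.7 and 35.0 after cisplatin and 35.3, 38.6 and 39.5 after oxaliplatin. The groups overlapped. The log2 fold changes of 0.07 (95% interval -0.07 to 0.21, adjusted p = 0.437) and 0.10 (-0.04 to 0.24, adjusted p = 0.245) did not pass the test, and with library totals Phlda3 was called higher for both drugs (0.37 and 0.41, adjusted p = 0.0382 and 0.0189).

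Plk2, a polo-like kinase gene induced by p53 and, in neurons, by activity, had the smallest adjusted p of the members that rose. It was at 44.6, 41.3 and 41.9 CPM in vehicle, 54.4, 54.4 and 51.2 after cisplatin and 52.6, 53.5 and 56.8 after oxaliplatin. Every drug library was above every vehicle library. Plk2 rose by a log2 fold change of 0.32 (SE 0.05, adjusted p = 0.00072) for cisplatin and 0.35 (SE 0.05, adjusted p = 0.00039) for oxaliplatin. Both calls held in each of the 17 alternatives run. Its relative Plk3 was at 10.7 to 11.4 CPM in vehicle, 9.38 to 10.8 after cisplatin and 9.61 to 10.5 after oxaliplatin, with log2 fold changes of -0.13 and -0.12 that did not pass the test (adjusted p = 0.214 and 0.216).

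Of the genes of cell cycle and growth arrest, Cdkn1a, which encodes the cyclin-dependent kinase inhibitor p21 and is the best known p53 target, was lower after oxaliplatin. Cdkn1a stood at 24.4, 30.5 and 24.5 CPM in vehicle, 22.6, 22.9 and 22.7 after cisplatin and 19.1, 18.7 and 18.2 after oxaliplatin. The groups did not overlap: vehicle was highest, cisplatin intermediate and oxaliplatin lowest. Its log2 fold change was -0.49 (SE 0.08, adjusted p = 0.000573) for oxaliplatin and -0.21 (SE 0.08, adjusted p = 0.0548) for cisplatin. The oxaliplatin call held in 16 of the 17 alternatives and was lost with library totals (-0.18, adjusted p = 0.341), where the cisplatin value was 0.09. The cisplatin change was called without vehicle library 3 (-0.26, adjusted p = 0.0368) and with the length and GC trend removed (-0.31, adjusted p = 0.00583). An exon of Cdkn1a shares 273 bases with the opposite-strand gene AC167363.2.

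Gadd45a, a small stress-induced protein gene of growth arrest, rose with both drugs. Its level was 12.4, 17.9 and 15.0 CPM in vehicle, 18.04, 19.5 and 19.5 after cisplatin and 17.5, 19.97 and 18.2 after oxaliplatin. The cisplatin libraries were above all vehicle libraries, and oxaliplatin library 1 lay below vehicle library 2. Gadd45a rose by a log2 fold change of 0.35 (SE 0.11, adjusted p = 0.0232) for cisplatin and 0.32 (SE 0.11, adjusted p = 0.0343) for oxaliplatin. The calls were lost with the length and GC trend removed (0.19 and 0.14, adjusted p = 0.132 and 0.253). The cisplatin call was lost without vehicle library 1, vehicle library 3 or cisplatin library 2 (adjusted p from 0.0591 to 0.0748). The oxaliplatin call was lost without vehicle library 1, vehicle library 3 or oxaliplatin libraries 2 or 3 (0.0685 to 0.114), and with the 2 groups fitted alone (0.054).

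Btg2, an antiproliferative and early-response gene, was at 6.60, 12.7 and 7.18 CPM in vehicle, 11.8, 9.59 and 9.20 after cisplatin and 8.62, 10.4 and 10.6 after oxaliplatin. Vehicle library 2 was the highest of the 9 libraries and the other vehicle libraries were the lowest. The log2 fold changes of 0.26 (adjusted p = 0.323) and 0.22 (adjusted p = 0.406) did not pass the test. Without vehicle library 2 both did, at 0.58 (adjusted p = 0.00544) and 0.54 (adjusted p = 0.0075), and so they did with library totals, at 0.58 and 0.54. Psrc1, a microtubule-associated gene, ranged from 0.45 to 0.877 CPM over the 9 libraries and was not called.

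**Figure D3:**
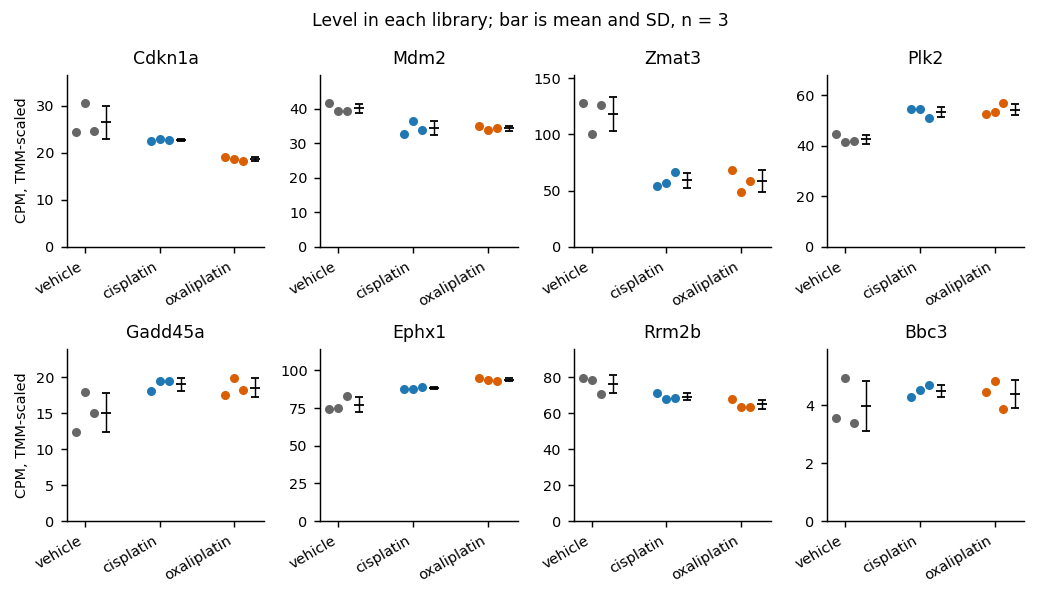
CPM in each library (points) for 8 members by group, with the mean and SD of the 3 libraries at the right of each group and axes that start at 0. Cdkn1a steps down from vehicle to cisplatin to oxaliplatin, Zmat3 is lower in both drug groups, and vehicle library 2 is the highest vehicle point for Cdkn1a, Bbc3 and Gadd45a.

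Among the cell death genes none of the classical effectors passed the test. Bbc3, which encodes the BH3-only protein Puma, was at 3.56, 4.95 and 3.38 CPM in vehicle, 4.27, 4.53 and 4.68 after cisplatin and 4.45, 4.83 and 3.86 after oxaliplatin. The drug libraries lay above 2 of the vehicle libraries and below vehicle library 2. Its log2 fold changes were 0.22 (95% interval -0.10 to 0.53, adjusted p = 0.25) and 0.18 (-0.13 to 0.50, adjusted p = 0.332). Without vehicle library 2 they were 0.39 (adjusted p = 0.0306) and 0.36 (adjusted p = 0.0423), and with library totals 0.51 and 0.49 (adjusted p = 0.0165 and 0.0205). Pmaip1, which encodes the BH3-only protein Noxa, was at 1.44 to 1.56 CPM in vehicle, 1.29 to 1.46 after cisplatin and 1.30 to 1.37 after oxaliplatin. Apaf1, the scaffold of the apoptosome, was at 16.4 to 17.0, 15.5 to 15.6 and 15.4 to 17.2 CPM. Neither was called for either drug.

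Aen, an apoptosis-enhancing nuclease gene, was at 30.9, 28.3 and 33.6 CPM in vehicle, 32.5, 35.3 and 36.8 after cisplatin and 35.6, 38.1 and 36.8 after oxaliplatin. The oxaliplatin libraries were all above the vehicle libraries, and cisplatin library 1 was within their range. It rose after oxaliplatin by a log2 fold change of 0.25 (SE 0.07, adjusted p = 0.0154), and the value for cisplatin was 0.17 (adjusted p = 0.0799). The oxaliplatin call was lost without oxaliplatin library 2 (adjusted p = 0.0572). The cisplatin change was called without vehicle library 3 (0.0314), with no count filter (0.0346), with library totals (0.0103) and with the length and GC trend removed (0.0404).

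Perp, a tetraspan membrane protein gene, was at 9.90, 10.3 and 9.33 CPM in vehicle, 13.7, 10.8 and 9.62 after cisplatin and 11.7, 12.4 and 12.95 after oxaliplatin. The oxaliplatin libraries lay above the vehicle libraries, and cisplatin library 1 was the highest of all. It rose after oxaliplatin (log2 fold change 0.33, SE 0.12, adjusted p = 0.0373), with 0.21 (adjusted p = 0.179) for cisplatin. The oxaliplatin call was lost without vehicle libraries 1 or 3 or oxaliplatin libraries 2 or 3 (adjusted p from 0.071 to 0.124) and with the length and GC trend removed (0.171). The cisplatin change was called without cisplatin library 3 (0.34, adjusted p = 0.0292) and with library totals (0.50, adjusted p = 0.006).

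Ei24, an endoplasmic reticulum protein gene first found as a p53-induced transcript, was at 73.2, 71.2 and 72.2 CPM in vehicle, 77.4, 78.4 and 80.1 after cisplatin and 80.3, 80.2 and 79.9 after oxaliplatin. All drug libraries were above all vehicle libraries by a narrow margin. The log2 fold changes were 0.12 (SE 0.04, adjusted p = 0.0328) and 0.15 (SE 0.04, adjusted p = 0.0119). The cisplatin call was lost without vehicle library 3, cisplatin libraries 1 or 2 or oxaliplatin library 3 (adjusted p from 0.0521 to 0.0845) and with the 2 groups fitted alone (0.0699). Triap1, which encodes a small mitochondrial protein that favours survival, was at 25.8, 29.6 and 24.7 CPM in vehicle, 30.4, 32.6 and 30.3 after cisplatin and 28.5, 35.5 and 31.3 after oxaliplatin. The cisplatin libraries did not overlap vehicle, while oxaliplatin library 1 lay below vehicle library 2. Its log2 fold change was 0.26 (SE 0.09, adjusted p = 0.034) for oxaliplatin and 0.23 (SE 0.09, adjusted p = 0.0584) for cisplatin. With the length and GC trend removed the values were 0.04 and 0.01, neither called. The oxaliplatin call was also lost without vehicle libraries 1 or 3 or oxaliplatin libraries 2 or 3 (adjusted p from 0.0687 to 0.147) and with the 2 groups fitted alone (0.0543). The cisplatin change was called in 10 of the 17 alternatives, with no vehicle library 2 (0.32, adjusted p = 0.0154) among them.

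The receptors and the secreted factor of the list were low, each under 2 CPM in every library. Fas, the death receptor gene, was at 1.27, 1.19 and 1.63 CPM in vehicle, 1.52, 1.45 and 1.33 after cisplatin and 1.72, 1.87 and 1.79 after oxaliplatin. The oxaliplatin libraries were above all others. The log2 fold change of 0.37 (95% interval 0.01 to 0.73, adjusted p = 0.094) for oxaliplatin did not pass the test, and that for cisplatin was 0.04 (adjusted p = 0.917). It was called for oxaliplatin without vehicle library 3 (0.53, adjusted p = 0.0437) and with library totals (0.66, adjusted p = 0.0222). Eda2r, the ectodysplasin A2 receptor gene, was at 1.80, 1.57 and 1.53 CPM in vehicle, 1.78, 1.81 and 1.44 after cisplatin and 1.94, 1.80 and 1.79 after oxaliplatin. The groups overlapped, with log2 fold changes of 0.03 (95% interval -0.31 to 0.38, adjusted p = 0.882) and 0.17 (-0.17 to 0.52, adjusted p = 0.402).

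Tnfrsf10b, the mouse receptor gene for the death ligand TRAIL, ranged from 0.362 to 0.86 CPM over the 9 libraries and was not called. Gdf15, a secreted stress cytokine of the TGF-beta family, had 3, 4 and 4 reads in the vehicle libraries, 5, 4 and 5 after cisplatin and 4, 1 and 3 after oxaliplatin. These counts were at or near the floor of 3 reads, so no fold is given, and a difference of Gdf15 was not detectable at this depth.

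Of the genes of nucleotide supply and repair, Rrm2b, the p53-inducible subunit of ribonucleotide reductase, was at 79.8, 78.6 and 70.6 CPM in vehicle, 71.2, 68.1 and 68.2 after cisplatin and 67.7, 63.3 and 63.4 after oxaliplatin. The oxaliplatin libraries were below all others, and cisplatin library 1 was above vehicle library 3. Rrm2b fell by a log2 fold change of -0.23 (SE 0.06, adjusted p = 0.00562) for oxaliplatin, and the value for cisplatin was -0.14 (SE 0.06, adjusted p = 0.0651), but these were 0.07 and 0.16 with library totals. With the length and GC trend removed, Rrm2b, with 9134 exonic bases one of the longest members, was called higher for both, at 0.13 (adjusted p = 0.0328) and 0.17 (adjusted p = 0.00852). The cisplatin change was called as lower without vehicle library 3 (-0.20, adjusted p = 0.0141) and with the replicate block (-0.14, adjusted p = 0.0413).

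Polk, a translesion DNA polymerase gene, was at 20.5, 18.04 and 18.6 CPM in vehicle, 17.2, 16.5 and 14.1 after cisplatin and 16.6, 15.3 and 15.2 after oxaliplatin. Each drug library was below each vehicle library. It fell for cisplatin (-0.26, SE 0.08, adjusted p = 0.0294) and oxaliplatin (-0.28, SE 0.08, adjusted p = 0.0187), with 0.03 and 0.01 under library totals. With the length and GC trend removed the calls were lost, at -0.13 (adjusted p = 0.197) and -0.11 (adjusted p = 0.275). The cisplatin call was also lost without vehicle libraries 1 or 3 or cisplatin libraries 2 or 3 (adjusted p from 0.05005 to 0.175) and with no count filter (0.0609), and the oxaliplatin call without vehicle library 1 or oxaliplatin libraries 2 or 3 (0.0615 to 0.128).

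Ddb2, which encodes a damage sensor of nucleotide excision repair, was at 6.22, 5.89 and 5.23 CPM in vehicle, 5.28, 4.82 and 4.12 after cisplatin and 5.21, 5.59 and 6.06 after oxaliplatin. Cisplatin libraries tended to the lower end, with 1 of the 3 inside the vehicle range. The log2 fold change for cisplatin was -0.28 (SE 0.12, adjusted p = 0.077) and for oxaliplatin -0.04 (adjusted p = 0.824), and neither passed the test. It was called for cisplatin without cisplatin library 1 (-0.36, adjusted p = 0.0489) and with the length and GC trend removed (-0.37, adjusted p = 0.0206).

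The sestrins and Ddit4l restrain the growth kinase mTOR. Sesn1 was at 56.5, 53.7 and 51.6 CPM in vehicle, 60.02, 64.4 and 56.5 after cisplatin and 61.9, 59.7 and 58.2 after oxaliplatin. Drug libraries were above vehicle libraries, cisplatin library 3 by a narrow margin. The log2 fold change was 0.16 (SE 0.06, adjusted p = 0.0457) for cisplatin and 0.15 (SE 0.06, adjusted p = 0.0549) for oxaliplatin, on either side of the threshold. The cisplatin call was lost without vehicle libraries 2 or 3, cisplatin libraries 1 or 2 or oxaliplatin libraries 2 or 3 (adjusted p from 0.0559 to 0.197), with limma-voom (0.0521), with the 2 groups fitted alone (0.069) and with the length and GC trend removed (0.0651). The oxaliplatin change was called without vehicle library 1 or cisplatin libraries 2 or 3 (0.0217 to 0.04975), with median-ratio size factors (0.0454), no count filter (0.0138) or library totals (0.00909), and with the replicate block (0.0359). Sesn2 was at 4.12, 3.57 and 4.65 CPM in vehicle, 4.36, 4.17 and 4.52 after cisplatin and 4.25, 4.48 and 5.08 after oxaliplatin. Its groups overlapped, with log2 fold changes of 0.06 (95% interval -0.20 to 0.32, adjusted p = 0.78) and 0.14 (-0.12 to 0.40, adjusted p = 0.365). With library totals it was called for oxaliplatin (0.43, adjusted p = 0.0383). Ddit4l ranged from 1.32 to 2.24 CPM over the libraries and was not called.

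Zmat3, which encodes a zinc finger RNA-binding protein, showed the largest change of the 31 tested members. It was at 128, 101 and 126 CPM in vehicle, 54.1, 56.8 and 66.3 after cisplatin and 68.4, 48.4 and 58.3 after oxaliplatin. The lowest vehicle library was well above the highest drug library. Levels were 2.003-fold lower for cisplatin and 2.03-fold lower for oxaliplatin (log2 fold change -1.002 and -1.02, SE 0.12 each, adjusted p = 0.000105 and 7.3e-05). Both calls held in each of the 17 alternatives, at -0.73 in each with library totals and at -0.72 and -0.76 with the length and GC trend removed. Zmat3 (ENSMUSG00000027663 in GENCODE M21) lies on chromosome 3, from 32334792 to 32366014 on the minus strand of GRCm38, and has 11435 exonic bases, the most of the members.

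Ephx1, the microsomal epoxide hydrolase gene, rose with both drugs. It was at 74.1, 74.7 and 82.8 CPM in vehicle, 87.5, 87.8 and 89.3 after cisplatin and 95.2, 93.3 and 93.1 after oxaliplatin. The 3 groups did not overlap, with oxaliplatin highest. Ephx1 rose by a log2 fold change of 0.19 (SE 0.05, adjusted p = 0.0107) for cisplatin and 0.28 (SE 0.05, adjusted p = 0.00103) for oxaliplatin. Both calls held without any 1 library, and both were lost with the length and GC trend removed (-0.00 and 0.08, adjusted p = 0.974 and 0.279).

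Sulf2, an extracellular sulfatase gene that edits heparan sulfate, was at 58.6, 56.3 and 55.1 CPM in vehicle, 47.9, 49.98 and 51.7 after cisplatin and 51.6, 48.6 and 47.9 after oxaliplatin. The drug libraries were all below the vehicle libraries. It fell by log2 fold changes of -0.18 (SE 0.05, adjusted p = 0.0152) and -0.20 (SE 0.05, adjusted p = 0.00961), but stood at 0.11 and 0.10 with library totals. The cisplatin call was lost without vehicle library 1 or cisplatin libraries 1 or 2 (adjusted p from 0.0507 to 0.104) and the oxaliplatin call without vehicle library 1 or oxaliplatin library 3 (0.0507 to 0.0754). With no count filter neither held (0.0993 and 0.0775).

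Zfp365, a zinc finger protein gene, was at 88.7, 81.3 and 89.1 CPM in vehicle, 64.7, 71.2 and 78.1 after cisplatin and 73.7, 70.0 and 71.1 after oxaliplatin. The drug libraries were again below each vehicle library. The log2 fold changes were -0.28 (SE 0.07, adjusted p = 0.00612) and -0.27 (SE 0.07, adjusted p = 0.00617), with 0.01 and 0.03 under library totals, and both calls held without any 1 library. D630023F18Rik, a gene with no named function, ranged from 0.458 to 1.12 CPM and was not called.

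Per kilobase of exon, Ccng1 had the highest vehicle level of the members, at 52.2 CPM per kilobase. Ephx1 followed at 39.6, Triap1 at 24.5 and Phlda3 at 22.7. Gdf15 was lowest at 0.0887 CPM per kilobase and Tnfrsf10b next at 0.112, with Psrc1 at 0.197, Eda2r at 0.277 and D630023F18Rik at 0.289. Summed over the 32 members, the level was 1062 to 1086 CPM in vehicle, 999 to 1011 after cisplatin and 985 to 1016 after oxaliplatin. The means of the sum were 1071, 1006 and 998 CPM, and those of Zmat3 alone were 118, 59.0 and 58.4. Most of the difference in the sum therefore lay in Zmat3, and the sum does not describe the members as a group. An exon overlap with a gene on the opposite strand was annotated for 7 members (Cdkn1a, Plk3, Gadd45a, Rrm2b, Ddb2, Ei24 and Sulf2) and on the same strand for 2 (Ephx1 and D630023F18Rik). Since the strand setting of the counting is not given in the sources used here, reads of such partners cannot be told apart.

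Exon length moved with the change of the members as it did with that of all genes. The 11 members with at least 5000 exonic bases had median log2 fold changes of -0.14 for cisplatin and -0.20 for oxaliplatin, beside -0.16 and -0.16 for the 6322 genes of that length. Of these 11, 5 fell and 0 rose after cisplatin, and 7 fell and 1 rose after oxaliplatin. Of the 6322 genes, 2716 fell and 451 rose after cisplatin, and 2741 fell and 517 rose after oxaliplatin. The 5 tested members under 2000 exonic bases (Phlda3, Gadd45a, Perp, Ephx1 and Triap1) had medians of 0.21 and 0.28, beside 0.18 and 0.19 for the 3250 genes of that length. None of these fell, while 2 rose after cisplatin and 4 after oxaliplatin. Of the 3250 genes, 833 rose and 155 fell after cisplatin, and 902 rose and 189 fell after oxaliplatin. Spearman's rho between exon length and log2 fold change was -0.52 and -0.57 across the 31 members, and -0.41 and -0.41 across 16380 genes. These are correlations across genes, which share libraries and are not independent replicates.

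**Figure D4:**
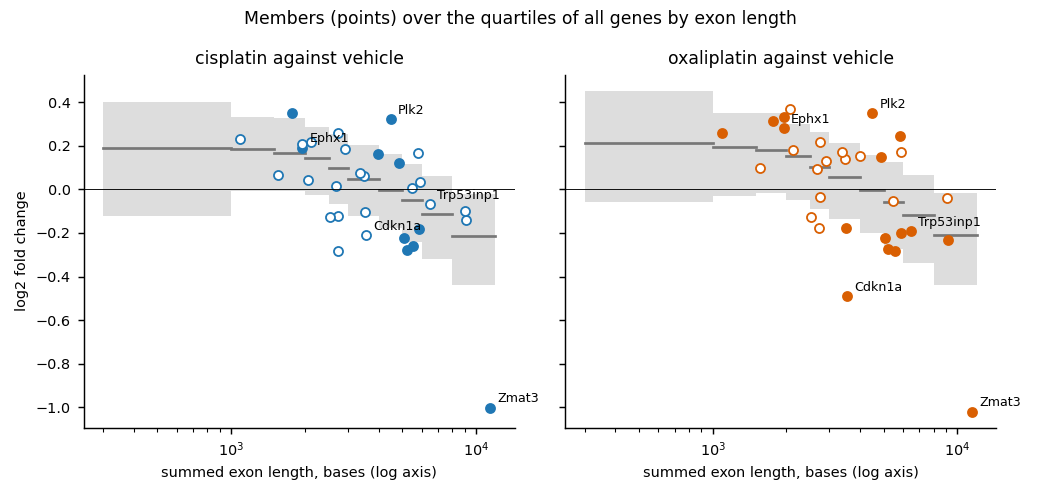
Log2 fold change of the members (points, filled where the adjusted p was under 0.05) against summed exon length on a log axis, over the median (line) and interquartile range (grey) of all genes in length bins up to 12000 bases. Zmat3 and Cdkn1a lie below the grey range at their length for both drugs and Plk2 and Aen above it, as do some other members on either side.

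When a smooth trend with length and GC content was taken out of every library, the members' rho with length became 0.14 and 0.02. The counts were then 5 higher and 6 lower for cisplatin (15.7% and 17.4% of 16380 genes) and 5 and 5 for oxaliplatin (17.5% and 17.0%). Zmat3, Mdm2, Sulf2, Zfp365, Plk2 and Ei24 kept their direction and call for each drug. Cdkn1a was then called lower for both drugs.

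**Figure D5:**
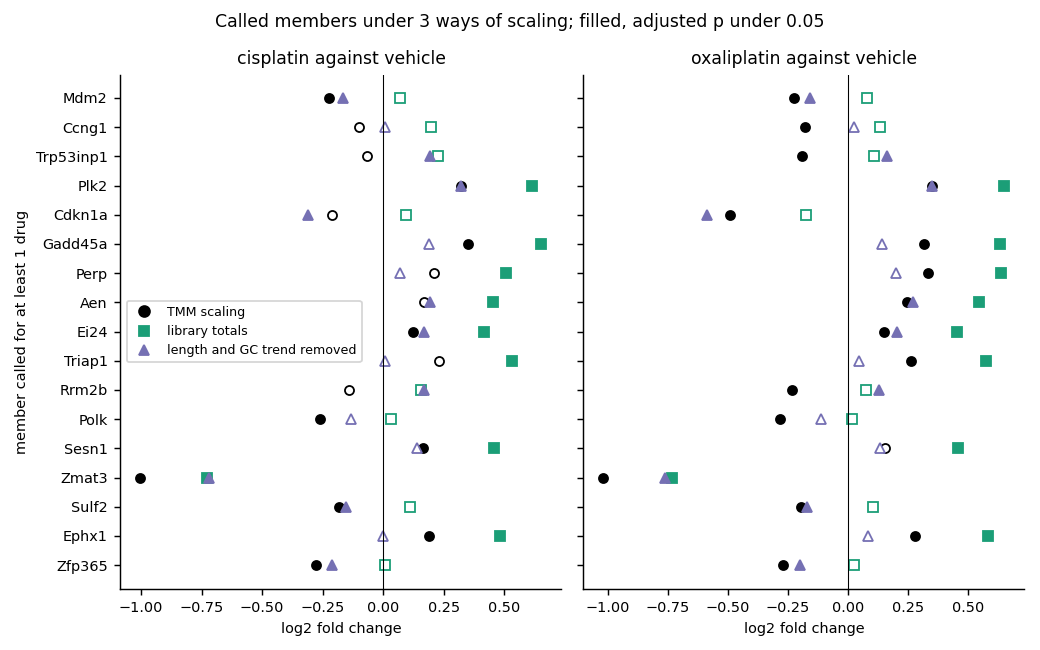
Log2 fold change of the 17 members called for at least 1 drug with TMM scaling (circles), library totals (squares) and the length and GC trend removed (triangles), filled where the adjusted p was under 0.05. Only Zmat3 stays below 0 and filled under all 3, and Plk2 and Ei24 stay above 0 and filled.

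No member was called between the drugs, which were given to the same cumulative dose. With edgeR 2 of all 17348 genes were called in cisplatin against oxaliplatin (0.0115%), and the count of members was 0 in each of the 17 alternatives, DESeq2 and limma-voom included. An unadjusted p under 0.05 was found for 2 of the 31 members, Cdkn1a and Ddb2, and for 1111 of the 17348 genes. Cdkn1a was higher after cisplatin by 0.28 (95% interval 0.11 to 0.45, unadjusted p = 0.00393, adjusted p = 0.599), in 3 of 3 libraries against each oxaliplatin library. Ddb2 was lower after cisplatin by a log2 fold change of -0.25 (95% interval -0.49 to -0.00, adjusted p = 0.767). The groups did not overlap for 5 members (16.1%, against 14.1% of all genes), which were Cdkn1a, Ccng1 and Rrm2b above and Fas and Ephx1 below. Of the genes called with both drugs, the interval of this difference ran from -0.14 to 0.09 for Plk2, from -0.12 to 0.12 for Mdm2, from -0.16 to 0.20 for Polk, from -0.19 to 0.26 for Gadd45a and from -0.25 to 0.28 for Zmat3.

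Of 23 tested genes of p53 and its regulators, 2 rose and 13 fell after cisplatin (median log2 fold change -0.29) and 2 rose and 14 fell after oxaliplatin (median -0.31). Of all genes, 15.8% rose and 22.9% fell after cisplatin and 17.5% and 24.1% after oxaliplatin, and the median was 0.00 for each. With library totals the counts in the list were 4 and 2, and 3 and 3, where 34.5% of all genes rose and 5.29% fell for cisplatin and 36.9% and 5.74% for oxaliplatin. With the trend removed they were 1 and 7, and 2 and 9, of 21 genes, beside 15.7% and 17.4% of all genes for cisplatin and 17.5% and 17.0% for oxaliplatin. The genes of smallest p in this list were the acetyltransferases Ep300 (-1.02 and -1.08) and Crebbp (-0.95 and -0.95), which act on p53, Ppp1r13b (-0.59 and -0.63), which encodes a p53-binding protein of the ASPP family, and Trp53inp2 (-0.61 and -0.69), the paralog of Trp53inp1. Their adjusted p-values for cisplatin ranged from 1.71e-05 for Ep300 to 0.000162 for Ppp1r13b. With library totals only 2 genes of the list were lower for cisplatin, so these calls did not all hold on that scale. The lowest log2 fold change in the list was then -0.73 for cisplatin and -0.79 for oxaliplatin, and -0.65 and -0.76 with the trend removed.

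Trp53, the gene of p53 itself, was at 9.86, 9.65 and 7.93 CPM in vehicle, 8.11, 7.30 and 8.91 after cisplatin and 6.73, 7.96 and 7.10 after oxaliplatin. Oxaliplatin library 2 was just above vehicle library 3 and the other oxaliplatin libraries were below all vehicle libraries. The log2 fold change was -0.32 (SE 0.11, adjusted p = 0.0355) for oxaliplatin and -0.17 (SE 0.11, adjusted p = 0.257) for cisplatin. The oxaliplatin call was lost without vehicle library 1 (adjusted p = 0.186), vehicle library 2 (0.103), oxaliplatin library 1 (0.131) or oxaliplatin library 3 (0.0971), with no count filter (0.0645), with the replicate block (0.0546) and with library totals (-0.02, adjusted p = 0.929). Mdm4, the partner of Mdm2 that masks the p53 activation domain, was lower for both (-0.21 and -0.36, adjusted p = 0.0115 and 0.000501), but with the length and GC trend removed it was at 0.23 (called higher, adjusted p = 0.00942) and 0.08, and with library totals at 0.08 and -0.06. The cisplatin call of Mdm4 was also lost without vehicle library 1 (0.0685) or cisplatin library 3 (0.0542) and with no count filter (0.0763).

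Of 23 kinases and mediators of damage signalling, 2 rose and 9 fell after cisplatin (median -0.12) and 1 rose and 8 fell after oxaliplatin (median -0.10), beside the 15.8% and 22.9%, and 17.5% and 24.1%, of all genes. With library totals the counts were 4 and 3, and 5 and 2. On that scale 34.5% of all genes rose and 5.29% fell for cisplatin, and 36.9% and 5.74% for oxaliplatin. The counts with the trend removed were 4 and 6, and 6 and 3, beside 15.7% and 17.4%, and 17.5% and 17.0%, of all genes. Log2 fold changes in this list ran from -0.87 to 1.06 for cisplatin and from -0.73 to 0.42 for oxaliplatin. The genes of smallest p were all lower. They were the kinase genes Atm (-0.68 and -0.48), Prkdc (-0.87 and -0.73) and Tlk1 (-0.52 and -0.59) and the mediator gene Mdc1 (-0.69 and -0.66). The kinase gene Atr was also called lower (-0.60 and -0.51), but was at 0.12 and 0.27 with the trend removed, the second called higher (adjusted p = 0.0123). With library totals neither call of Atr or Tlk1 held, nor that of Atm for oxaliplatin (-0.19, adjusted p = 0.312).

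Of 31 other tested p53 targets, 6 rose and 2 fell after cisplatin and 9 rose and 2 fell after oxaliplatin, each with a median of 0.13. Of all genes 15.8% rose and 22.9% fell for cisplatin, and 17.5% and 24.1% for oxaliplatin. The count that rose lay near that share for cisplatin and above it for oxaliplatin, and the count that fell lay below it for each drug. The list was not tested as a set. With library totals (34.5% and 36.9% of all genes higher, 5.29% and 5.74% lower), the counts were 15 and 0 for each drug. With the trend removed they were 5 and 1, and 6 and 2, of 30 genes. The shares of all genes were then 15.7% and 17.4% for cisplatin and 17.5% and 17.0% for oxaliplatin. Trp53i11 (0.89 and 1.15, adjusted p = 0.00306 and 0.000482) and Pltp, a phospholipid transfer protein gene (0.42 and 0.57), rose. Kitl, which encodes stem cell factor (-0.32 and -0.56), and Sesn3, the third sestrin gene (-0.40 and -0.32), fell. Neither fall held with library totals (-0.03 and -0.25 for Kitl, -0.11 and -0.02 for Sesn3), and Sesn3 was at 0.03 and 0.09 with the trend removed. Bax, which encodes a pore-forming effector of mitochondrial apoptosis, was at 0.08 and 0.10 and did not pass the test (adjusted p = 0.422 and 0.282), though it was called higher with library totals (0.37 and 0.41, adjusted p = 0.0364 and 0.0197).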

How the data were processed

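Stranded total RNA libraries were sequenced as single-end reads of 75 nucleotides. The deposited files hold raw counts, that is reads per gene symbol in each library, not normalized. The submitters' processing notes name STAR, SAMtools, HTSeq and the builds mm10 and GRCm38; annotation, filters and strand setting: not given in the sources used here. Of the records counted, 42.8 to 74.5% belonged to no single gene and stayed out of all fits.

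The 9 libraries were fitted together in edgeR 4.0.16 (R 4.3.3) with 1 term per group, TMM factors, filterByExpr and the quasi-likelihood F test, and p-values were adjusted by Benjamini-Hochberg over 17348 genes. The SE is the log2 fold change divided by the square root of F. The code was tested on simulated data. Exon lengths, GC content and positions came from GENCODE M21 (GRCm38), which held 91.6% of the symbols. Promoter windows came from RefSeq (GRCm38.p6).

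Alternatives were median-ratio size factors, library totals, no count filter, DESeq2 1.42.0, limma-voom (limma 3.58.1), a replicate block, a length and GC trend removed (mgcv 1.9.3), the 2 groups fitted alone, and leaving out each of the 9 libraries. Where that left a group with 2 libraries, all groups still shared 1 estimate of the spread. Members called in any comparison, and Cdkn1a, Mdm2, Bbc3, Gdf15, Eda2r, Phlda3, Ccng1, Fas and Sesn2 in any case, are given in full. From each further list the 4 genes of smallest p are named, and others only if called or, for Trp53 and Bax, chosen after their values were seen. The members and lists were chosen with earlier results of these data known.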

Additional observations from a re-analysis of the deposited data

How the results depend on the processing

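No member count of cisplatin against oxaliplatin moved from 0 in any alternative. With library totals the members called numbered 11 higher and 1 lower for cisplatin and 13 and 1 for oxaliplatin, since this scaling raised the median of all genes. With no count filter 3 were lower for cisplatin and 5 for oxaliplatin, and with the length and GC trend removed 5 were lower for oxaliplatin; the cause was not tested. Leaving out 1 library gave 2 to 7 higher and 2 to 6 lower for cisplatin, and 3 to 9 higher and 5 to 9 lower for oxaliplatin. With the replicate block the counts were 6 and 6 for cisplatin, 8 and 9 for oxaliplatin and 0 between the drugs. For the fits with no count filter, without 1 library and with the replicate block, the share of all genes called is not given here. Whether the members or the calls over all genes moved in them cannot be told. Correlations of deviations from the group means ranged from -0.14 to 0.11 for same-numbered libraries and from -0.23 to 0.21 for differently numbered ones. These values show no pairing by number, and with 3 libraries a group they cannot exclude it.

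Among values called with TMM factors or in the alternative, the sign turned with library totals for cisplatin in Mdm2 (0.067), Polk (0.0298), Sulf2 (0.11) and Zfp365 (0.00807), and for oxaliplatin in Mdm2 (0.078), Ccng1 (0.13), Trp53inp1 (0.11), Rrm2b (0.0729), Polk (0.0149), Sulf2 (0.10) and Zfp365 (0.0259). With the length and GC trend removed, among values called in either fit, it turned for cisplatin in Trp53inp1 (0.19), Rrm2b (0.17) and Ephx1 (-0.0031), and for oxaliplatin in Ccng1 (0.0234), Trp53inp1 (0.16) and Rrm2b (0.13). Of the members' values under the alternatives, 29 calls were lost and 27 gained for cisplatin, and 38 lost and 15 gained for oxaliplatin, besides those that turned.

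The depth limits Gdf15, Tnfrsf10b, Psrc1 and D630023F18Rik, whose levels lay near the floor of 3 reads or had intervals over 0.5 log2 units to either side.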
